A study of Mus with 6 samples.

Results

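Cytosolic translation factors are the proteins that bring an mRNA, the initiator tRNA and the ribosomal subunits together at the start codon and then drive the ribosome along the message. Their genes were taken from the deposited expression table by name. A gene was a member if its biotype was protein coding and its symbol began with Eif followed by a digit from 1 to 6, or with Eef followed by 1 or 2. This gave 68 genes of the 54532 in the table. The choice used no measured value. It also takes regulators whose symbols carry the same root, such as the kinases of eIF2 and the methyltransferases of the elongation factors.

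The samples were 6 RNA-seq libraries of the basolateral amygdala, a group of forebrain nuclei that associates sensory cues with threat. Of these, 3 came from wild-type mice (WT) and 3 from mice labelled CNTNAP4-KO (KO), and all 6 were labelled female. The labels describe neither the allele nor the strain or age, and do not say that each library was a separate animal, so p-values refer to the spread between these libraries. No agent is named on any sample, and the single comparison was KO against WT.

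In cap-dependent initiation, eIF4E binds the cap of the mRNA, eIF4G bridges it to the small ribosomal subunit through eIF3, and eIF4A unwinds the leader. The factor eIF2 delivers the initiator tRNA, and phosphorylation of its alpha subunit traps the exchange factor eIF2B, lowers general initiation and favours a few mRNAs such as that of Atf4. During elongation eEF1A delivers aminoacyl-tRNAs, eEF1B reloads eEF1A with GTP, and eEF2 moves the ribosome by a codon. In neurons these steps are regulated locally at synapses and are needed for long-lasting memory.

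Levels are given as FPKM, fragments per kilobase of gene scaled to library size, in the order of replicates 1, 2 and 3. Fold changes are KO minus WT differences of log2(FPKM + 1), with the moderated standard error (SE) of limma. P-values were adjusted by the Benjamini-Hochberg method over the 13087 genes whose mean FPKM was at least 1, with a threshold of 0.05, and 62 of the 68 members were among these genes.

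The libraries held 15933029 to 17789798 reads, and the targeted gene, Cntnap4, was at 2.15 to 3.90 FPKM in WT and 1.08 to 1.28 in KO (limma adjusted p = 0.302). Markers of pallial excitatory neurons and of inhibitory neurons were present in every library, with sums of 690.0 to 968 and 481 to 687 FPKM. The sum of 6 microglial markers was 125 to 169 FPKM in WT and 84.9 to 104 in KO, with no overlap, and all 6 had a negative log2 fold change. Of the 6, 4 were lower without overlap, while Cx3cr1 (10.4 ± 3.49 and 8.61 ± 0.79) and P2ry12 (14.5 ± 4.45 and 13.1 ± 3.84) overlapped. Tested astrocyte, meningeal, choroid plexus and striatal markers were also all negative. Those of oligodendrocytes and pallial excitatory neurons were all positive. The sums of astrocyte, oligodendrocyte, endothelial, meningeal, choroid plexus and striatal markers overlapped between the groups. Striatal markers summed to 404 FPKM in replicate 3 of WT and 161 in replicate 3 of KO, against 29.8 to 53.7 in the others. Meningeal markers were highest in replicate 1 of WT, at 18.1 FPKM against 2.81 to 8.88. In bulk tissue, fewer cells of a type and less RNA per cell cannot be told apart, and the part of cell composition in the results below was not tested.

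No translation factor gene passed the threshold (0 of 62 in limma, 0 with voom on recovered reads), where 0.00764% of all tested genes passed (1 gene, and 0 with the replicate number as a block), and the smallest adjusted p of a member was 0.303. At an unadjusted p under 0.05 limma gave 4 members lower and 4 higher in KO, and voom also gave 4 and 4. Among all tested genes 7.25% were lower and 7.05% higher by that measure, so the members' counts are near the background. All 3 KO values lay below all 3 WT values for 10 of the 62 members, against 10.1% of all tested genes. They lay above for 7 of the 62, against 11.9%. In either direction 27.4% of the tested members had no overlap, against 22.0% of all tested genes. Log2 fold changes were negative for 36 of the 62 and positive for 26. Their median was -0.03, beside 0.01 for all tested genes. Log2 fold changes of members ran from -0.31 (Eef1a1) to 0.36 (Eif1ax). With each library rescaled to the same FPKM sum, the members at an unadjusted p under 0.05 were 0 lower and 6 higher, and over all genes 580 lower and 1224 higher, in place of 949 and 923. The lower values of members are therefore given relative to the authors' scaling.

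**Figure D1:**
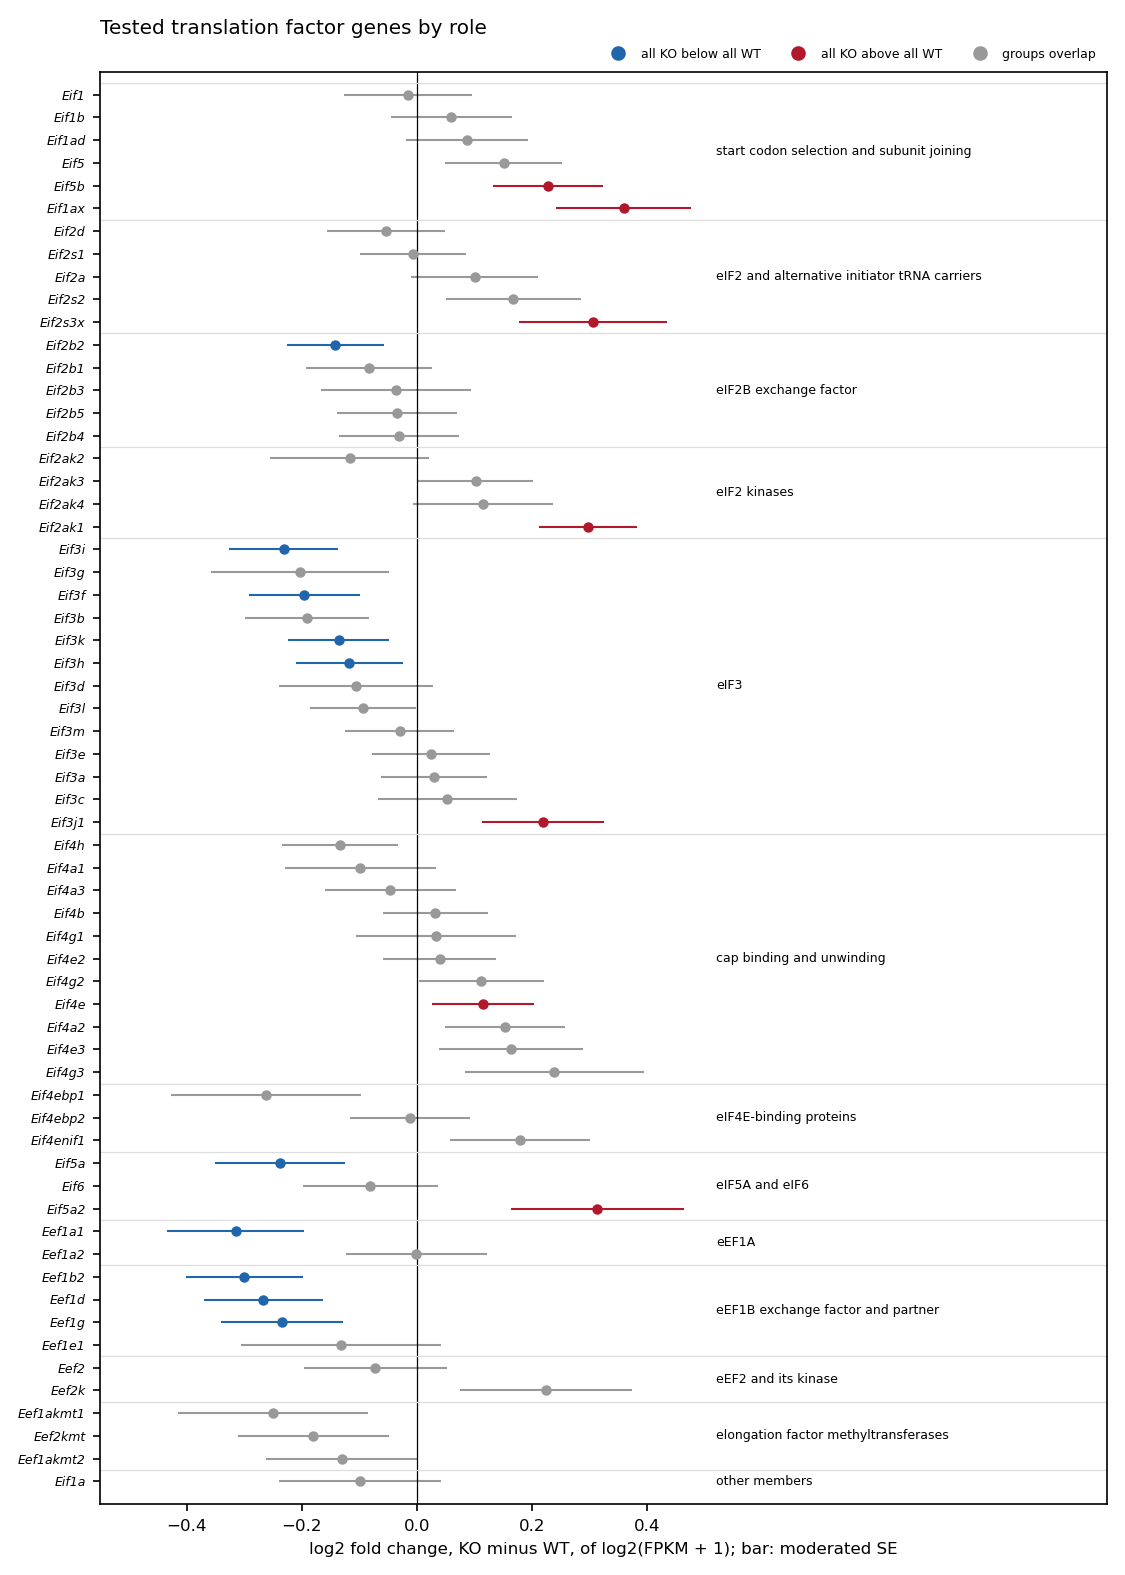
Log2 fold change (KO minus WT, on the log2(FPKM + 1) scale) of the 62 tested translation factor genes, grouped by role, with bars for the moderated SE. The genes with all KO values below all WT values include Eef1a1 and the eEF1B subunits, and those with all KO values above include Eif1ax, Eif2s3x and Eif2ak1.

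The elongation factor genes Eef1a1, Eef1a2 and Eef2 stood highest of all members. The core of the eEF1 complex was lower in KO without overlap, apart from Eef1a2 and short of the threshold. The microglial marker sum was also lower in every KO library, and its part in these values was not tested. Eef1a1, the general form of the GTPase that carries aminoacyl-tRNA to the ribosome (ENSMUSG00000037742, chromosome 9 from 78478449 to 78489151), was the sixth most abundant nuclear protein-coding gene by FPKM. It gave 969, 887 and 893 FPKM for WT libraries and 727, 695 and 790.2 for KO libraries. Every KO library was below every WT library, with means of 917 ± 45.7 and 737 ± 48.5 (SD, n = 3 each). In log2 this was -0.31 (SE 0.12, limma adjusted p = 0.325). With quantile normalization it was -0.09, and the groups overlapped. That setting gives the libraries the same value at each rank, and Eef1a1 ranked 16 of all genes by level.

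Eef1a2, the form that replaces Eef1a1 in mature neurons and in muscle (chromosome 2 from 181147653 to 181157014), measured 596, 625 and 582 FPKM across WT libraries, against 655, 613 and 539.5 across KO libraries. Its groups overlapped in full, the means were 601 ± 22.1 and 602 ± 58.3, and KO minus WT was, in log2, 0.00 (SE 0.12), positive with equal sums, quantile normalization or the length trend removed. The share of Eef1a2 in the summed FPKM of the pair was 38.1%, 41.3% and 39.5% in WT and 47.4%, 46.9% and 40.6% in KO. The KO share was above all WT shares in replicates 1 and 2 and inside their range in replicate 3, and the difference was not tested.

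The exchange factor eEF1B is built from Eef1b2 and Eef1d, which carry the nucleotide exchange domains, and Eef1g, a scaffold. Eef1b2 (ENSMUSG00000025967, chromosome 1 from 63176825 to 63180486) had WT values of 46.5, 43.6 and 44.5 FPKM and KO values of 33.5, 35.5 and 40.0. The highest KO value, in replicate 3, lay below the lowest WT value, and the fitted log2 difference was -0.30 (SE 0.10, limma adjusted p = 0.305). Eef1d (ENSMUSG00000055762, chromosome 15 from 75894205 to 75909556) stood at 10.4, 9.72 and 9.07 FPKM in WT libraries, compared with 8.80, 7.65 and 7.32 in KO libraries. Again no library overlapped, although the gap between the groups was small, and the log2 difference was -0.27 (SE 0.10, limma adjusted p = 0.331). Eef1g (ENSMUSG00000071644, chromosome 19 from 8967041 to 8978479) reached 114, 107 and 104 FPKM in the WT libraries and 89.0, 86.6 and 101 in the KO libraries. It too had no overlap, by a narrow margin in replicate 3 of KO, and its log2 difference was -0.23 (SE 0.11, limma adjusted p = 0.366), or -0.16 with the length trend removed.

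Eef1e1 shares the eEF1 name but encodes a small protein of the multi-synthetase complex. It gave 8.26, 6.76 and 4.80 FPKM for WT libraries and 5.63, 5.52 and 6.34 for KO libraries, and WT spanned the whole KO range. Its log2 fold change of -0.13 (SE 0.17) was 0.02 without replicate 1 of WT. The gene span of Eef1b2 overlaps Ndufs1 on the opposite strand, which held 127% as many reads, and with the use of strand not given in the sources used here their reads could be shared.

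Eef2, the translocase of elongation (chromosome 10 from 81176631 to 81182498), had 342, 375 and 434 FPKM (WT) and 359.7, 363.8 and 365.5 (KO). The KO libraries lay within the WT range and KO minus WT was, in log2, -0.07 (SE 0.12), or 0.02 without replicate 3 of WT. Eef2k, the calmodulin-dependent kinase that inactivates eEF2, measured 4.01, 5.10 and 5.68 FPKM across WT libraries, against 7.002, 5.63 and 5.14 across KO libraries. The groups overlapped, with a log2 fold change of 0.22 (SE 0.15, limma adjusted p = 0.5004).

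The methyltransferases of elongation factors were low to moderate in level. Eef1akmt1, which methylates a lysine of eEF1A, had WT values of 21.9, 18.8 and 16.3 FPKM and KO values of 13.2, 15.2 and 19.4. Eef2kmt, the corresponding enzyme of eEF2, reached 1.48, 1.47 and 1.53 FPKM in the WT libraries and 1.11, 1.03 and 1.47 in the KO libraries. Eef1akmt2 had 4.91, 6.37 and 6.48 FPKM (WT) and 6.01, 5.10 and 4.82 (KO). The groups overlapped for all 3, whose log2 fold changes ran from -0.25 to -0.13. Eef1akmt4 (means of 0.27 and 0.26 FPKM) and Eef1akmt3 (a mean of 0.50 reads per library) were under the filter.

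**Figure D2:**
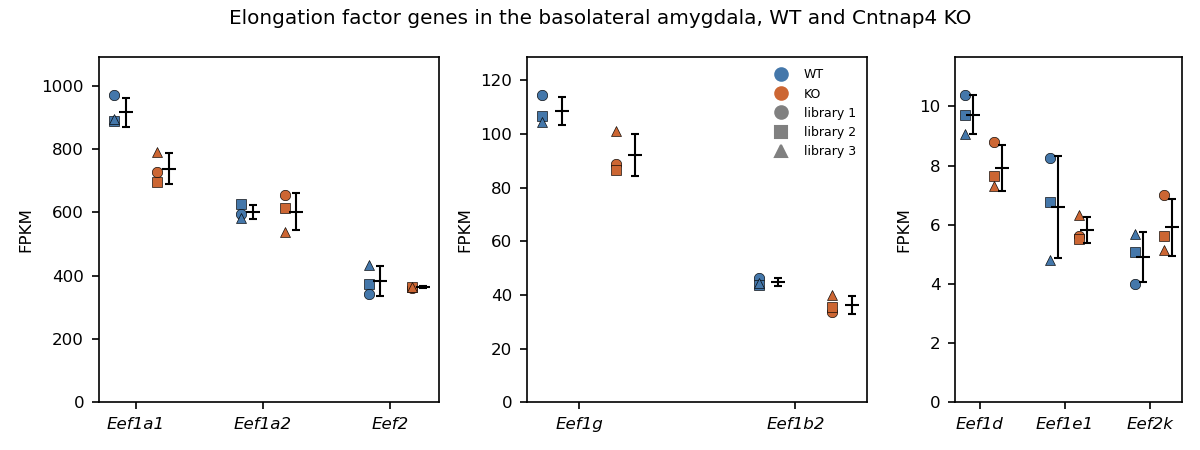
FPKM of 8 elongation genes in each library, with WT in blue, KO in orange, a marker shape for each replicate number and bars for the mean ± SD. Eef1a1, Eef1g, Eef1b2 and Eef1d have no overlap between the groups, and Eef1a2, Eef2, Eef1e1 and Eef2k overlap.

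Among the factors that select the start codon and join the subunits, 5 of 6 listed genes had a positive log2 fold change. Eif1a was in none of the lists and is not counted among the 6. Eif1ax encodes eIF1A, which keeps the small subunit open for scanning (ENSMUSG00000067194, chromosome X from 159372178 to 159389928). It stood at 30.9, 39.0 and 35.4 FPKM in WT libraries, compared with 46.7, 41.7 and 47.1 in KO libraries, the largest positive log2 fold change of the members, at 0.36 (SE 0.12, limma adjusted p = 0.303; 0.22 with sample weights). Every KO library was above every WT library. Eif1a, an autosomal gene for the same factor, reached 21.5, 17.6 and 15.0 FPKM in the WT libraries and 17.6, 15.3 and 16.99 in the KO libraries, with overlap and a log2 fold change of -0.10 (SE 0.14). Its share of the summed FPKM of the pair was 29.7% to 41.0% in WT and 26.5% to 27.4% in KO.

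Eif5b, the GTPase that joins the large subunit (ENSMUSG00000026083, chromosome 1 from 37998010 to 38055579), gave 5.36, 6.03 and 5.36 FPKM for WT libraries and 6.83, 6.26 and 7.06 for KO libraries. The KO values were all higher, by a log2 fold change of 0.23 (SE 0.10, limma adjusted p = 0.347), which was 0.12 with the length trend removed and 0.13 with sample weights. Eif5, which triggers GTP hydrolysis on eIF2, measured 34.9, 33.9 and 37.3 FPKM across WT libraries, against 38.7, 36.6 and 43.1 across KO libraries, with overlap.

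Eif1, the guardian of start codon choice, and its paralog Eif1b were abundant and overlapped between the groups. Eif1 had WT values of 137, 132 and 154 FPKM and KO values of 142, 129.6 and 147. Eif1b had 70.9, 75.4 and 67.2 FPKM (WT) and 81.3, 70.4 and 71.3 (KO). The signs of both small fold changes (-0.02 and 0.06) turned under some alternatives. Eif1ad, a protein with an eIF1A-like domain, was at 8.53 ± 0.70 and 9.13 ± 0.82.

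Among the genes for the 3 subunits of eIF2, only the X-linked gene of the gamma subunit had no overlap between the groups. The subunits were not tested against each other. Eif2s3x, the X-linked gamma gene whose product binds GTP and the initiator tRNA (ENSMUSG00000035150, chromosome X from 94188707 to 94212862), stood at 17.5, 23.6 and 19.1 FPKM in WT libraries, compared with 26.7, 24.0 and 23.9 in KO libraries. The lowest KO library was just above the highest WT library, and the fitted log2 difference was 0.31 (SE 0.13, limma adjusted p = 0.347; 0.16 with sample weights). Its Y-linked copy Eif2s3y had 0 reads in all 6 libraries.

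Both X-linked members were thus higher in KO without overlap. Over the 455 other tested genes of the X chromosome the median log2 fold change was 0.01, with 55 genes higher and 29 lower without overlap. Of all tested genes 11.9% were higher and 10.1% lower by that measure. In either direction 18.5% of these X-linked genes had no overlap, against 22.0% of all tested genes. Eif1ax, Eif2s3x and Xist, the noncoding RNA that coats the silenced X, were each lowest in replicate 1 of WT, where Xist was at 23.3 FPKM against 38.3 to 50.1 in the others. The part of that library was tested only by leaving it out, which gave 0.27 for Eif1ax and 0.22 for Eif2s3x.

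Eif2s1, the alpha subunit that stress kinases phosphorylate, reached 7.44, 6.82 and 6.63 FPKM in the WT libraries and 6.73, 6.73 and 7.32 in the KO libraries, with a log2 fold change of -0.01 (SE 0.09). Eif2s2, the beta subunit, gave 8.67, 7.19 and 6.95 FPKM for WT libraries and 8.39, 7.98 and 9.60 for KO libraries, with overlap. The non-canonical initiator tRNA carriers Eif2a (means of 5.97 ± 0.35 FPKM for WT and 6.50 ± 0.83 for KO) and Eif2d (3.07 ± 0.24 and 2.92 ± 0.16) overlapped as well.

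All 5 subunit genes of eIF2B, the exchange factor whose mutations cause a white matter disease, had a small negative log2 fold change under the authors' scaling. With the length trend removed Eif2b4 was at 0.042 and Eif2b5 at 0.039, and with equal FPKM sums at 0.023 and 0.022. Eif2b2, the beta subunit (ENSMUSG00000004788, chromosome 12 from 85219481 to 85226628), gave 13.8, 13.5 and 13.6 FPKM for WT libraries and 11.8, 12.7 and 12.3 for KO libraries, with no overlap. Its log2 difference was -0.14 (SE 0.08, limma adjusted p = 0.456), and -0.03 with the length trend removed. Eif2b1 measured 10.4, 9.28 and 8.72 FPKM across WT libraries, against 9.44, 7.91 and 9.29 across KO libraries. The catalytic subunit Eif2b5 had 20.2, 22.0 and 17.9 FPKM (WT) and 19.4, 20.2 and 18.8 (KO). These and the other two, Eif2b4 (12.04 ± 1.41 and 11.7 ± 0.18) and Eif2b3 (1.91 ± 0.35 and 1.82 ± 0.10), overlapped between the groups.

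The 4 kinases of eIF2 each answer a different stress, and 1 of them differed without overlap. Eif2ak1, which senses haem and mitochondrial stress (ENSMUSG00000029613, chromosome 5 from 143817788 to 143904251), had WT values of 11.0, 11.7 and 10.8 FPKM and KO values of 14.1, 14.1 and 13.6. The spread within each group was small beside the gap between them, and the log2 difference was 0.30 (SE 0.09, limma adjusted p = 0.303). It was the only member with an unadjusted p under 0.05 in all 17 alternatives, with adjusted p from 0.118 to 0.685. Its span overlaps Aimp2 on the opposite strand, which held 15.5% as many reads.

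Eif2ak3, the kinase of the endoplasmic reticulum, stood at 4.18, 5.06 and 4.61 FPKM in WT libraries, compared with 5.16, 5.13 and 4.77 in KO libraries. Eif2ak4, which senses uncharged tRNA, measured 2.82, 3.27 and 2.37 FPKM across WT libraries, against 3.32, 3.14 and 2.92 across KO libraries. Eif2ak2, the interferon-inducible kinase that binds double-stranded RNA, had WT values of 1.04, 1.07 and 1.29 FPKM and KO values of 0.79, 1.03 and 1.09, just above the filter. All 3 overlapped between the groups.

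**Figure D3:**
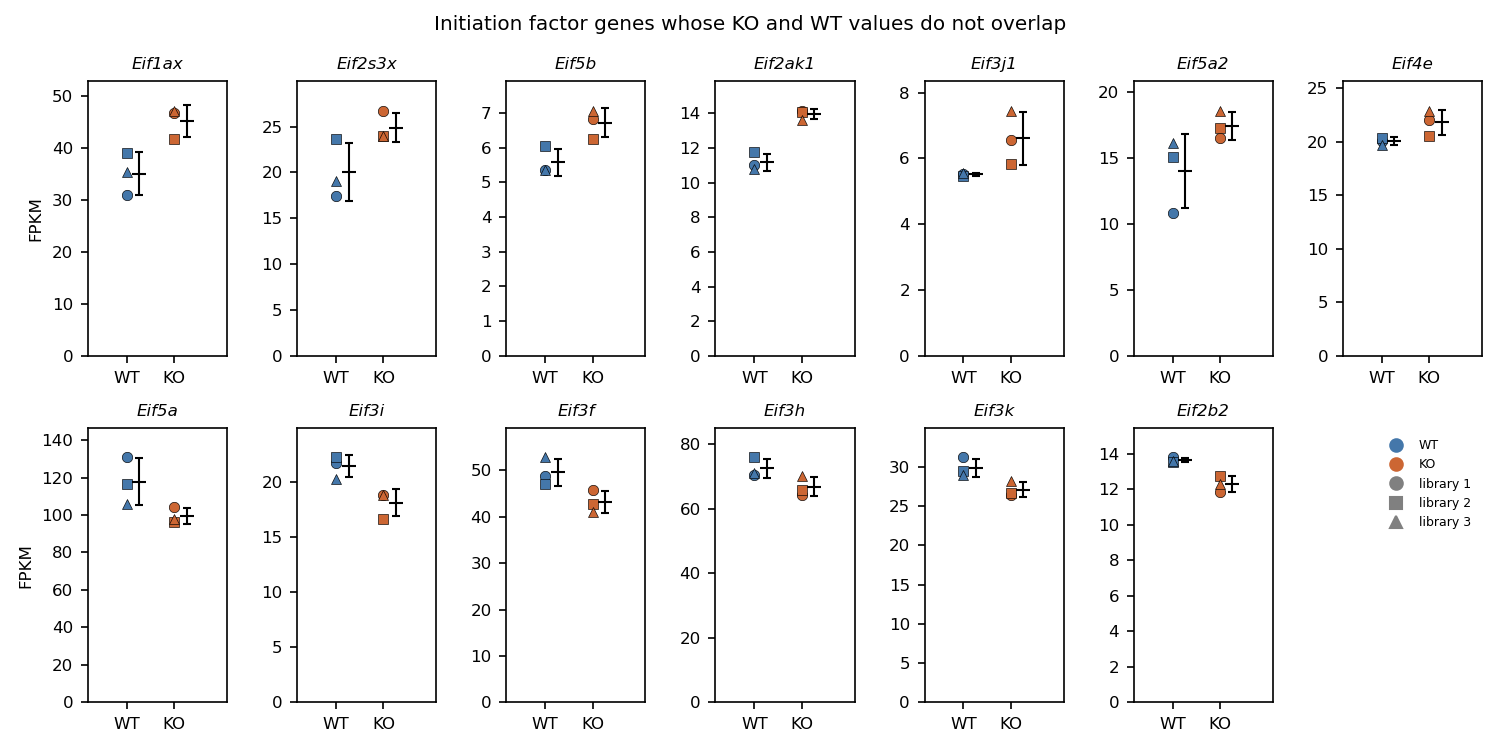
FPKM per library of the 13 initiation factor genes whose KO and WT values did not overlap, with bars for the mean ± SD and each axis starting at 0. The 7 genes of the upper row were higher in KO and the 6 of the lower row lower, and none passed the adjusted threshold.

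The eIF3 complex, the largest initiation factor, holds the small subunit and recruits it to the mRNA. Of its 13 tested genes 9 were negative in log2, median -0.11, and the 4 genes lower without overlap were Eif3i, Eif3f, Eif3k and Eif3h. Of all tested genes 48.7% were negative and 10.1% lower without overlap. Eif3i, a propeller protein of the b-g-i module (ENSMUSG00000028798, chromosome 4 from 129591960 to 129600648), reached 21.7, 22.2 and 20.3 FPKM in the WT libraries and 18.8, 16.7 and 18.8 in the KO libraries. All KO values were lower, by -0.23 on the log2 scale (SE 0.10, limma adjusted p = 0.343).

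Eif3f, Eif3h and Eif3k belong to the scaffold of the complex. Eif3f (ENSMUSG00000031029, chromosome 7 from 108934417 to 108942951) gave 48.7, 47.1 and 52.8 FPKM for WT libraries and 45.7, 42.8 and 41.0 for KO libraries, with a log2 fold change of -0.20 (SE 0.10, limma adjusted p = 0.392). Eif3h (ENSMUSG00000022312, chromosome 15 from 51786558 to 51865523) stood at 70.4, 75.8 and 71.1 FPKM in WT libraries, compared with 64.3, 65.8 and 70.0 in KO libraries, and Eif3k (ENSMUSG00000053565, chromosome 7 from 28971372 to 28981864) at 31.2, 29.5 and 28.9 (WT) and 26.4, 26.7 and 28.1 (KO). For both, replicate 3 of KO came within a few percent of the WT range. With the length trend removed the log2 fold change of Eif3h went from -0.12 to 0.00 and that of Eif3k from -0.14 to -0.07.

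Eif3j1, which encodes a loosely bound subunit near the mRNA entry channel (ENSMUSG00000027236, chromosome 2 from 122028546 to 122056598), went the other way. It measured 5.53, 5.46 and 5.56 FPKM across WT libraries, against 6.57, 5.83 and 7.44 across KO libraries, with no overlap and a log2 fold change of 0.22 (SE 0.11, limma adjusted p = 0.380; 0.14 without replicate 3 of KO). Its near copy Eif3j2 was at 0.86 ± 0.25 and 0.82 ± 0.03, the first member under the filter, and how their shared reads were counted is not stated in these sources. The span of Eif3j1 also overlaps Spg11 on the opposite strand, which held 51.7% as many reads.

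The other eIF3 genes overlapped between the groups. The large subunits Eif3a (means of 29.7 ± 0.76 FPKM for WT and 30.4 ± 2.02 for KO) and Eif3c (50.4 ± 6.32 and 52.1 ± 3.13) had fold changes near 0. Eif3b was at 30.9 ± 2.76 and 26.9 ± 1.95, Eif3g at 20.6 ± 3.40 and 17.7 ± 2.36, and Eif3d, which can itself bind the cap, at 8.32 ± 1.49 and 7.60 ± 0.46. Eif3e was at 11.0 ± 1.05 and 11.2 ± 0.60, Eif3l at 19.3 ± 1.31 and 17.98 ± 0.52, and Eif3m at 22.7 ± 0.30 and 22.3 ± 1.74. Levels of the eIF3 genes thus spanned 8.32 to 72.4 FPKM in WT, leaving aside the j genes.

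Genes of cap binding and unwinding mostly overlapped between the groups, and 8 of 11 tested had a positive log2 fold change (median 0.04). Eif4e, the cap-binding protein (ENSMUSG00000028156, chromosome 3 from 138526179 to 138559696), had WT values of 20.1, 20.4 and 19.7 FPKM and KO values of 22.1, 20.6 and 22.9. The KO values were just above the WT values and KO minus WT was, in log2, 0.12 (SE 0.09, limma adjusted p = 0.552), or 0.07 with the length trend removed. Its relatives Eif4e2, which represses translation (6.59 ± 0.41 and 6.81 ± 0.52), and Eif4e3 (5.36 ± 0.82 and 6.10 ± 0.51) overlapped, and the germline form Eif4e1b had 0 reads in every library.

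The scaffold genes overlapped between the groups. Eif4g1 stood at 37.8, 38.5 and 30.0 FPKM in WT libraries, compared with 39.5, 37.8 and 31.4 in KO libraries, with replicate 3 lowest in both groups. Eif4g3, the form most like it, reached 19.0, 24.8 and 18.1 FPKM in the WT libraries and 27.7, 24.7 and 20.8 in the KO libraries, also lowest in replicate 3 of each group. Eif4g2, which lacks the eIF4E-binding part and serves non-canonical initiation, gave 63.1, 62.2 and 68.2 FPKM for WT libraries and 64.9, 67.1 and 77.9 for KO libraries, highest in replicate 3 of each group. The share of Eif4g2 was 49.6% to 58.6% of the summed FPKM of the 3 in WT and 49.1% to 59.9% in KO.

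The helicase genes had log2 fold changes of opposite sign, and both overlapped between the groups. Eif4a2, the form prominent in brain, reached 119, 113 and 102 FPKM in the WT libraries and 118, 125 and 127 in the KO libraries. Eif4a1 had 51.9, 45.6 and 38.0 FPKM (WT) and 44.0, 39.5 and 42.0 (KO). The log2 fold changes were 0.15 (SE 0.10) and -0.10 (SE 0.13). The share of Eif4a2 in their summed FPKM was 69.6%, 71.2% and 72.8% in WT and 72.9%, 76.0% and 75.2% in KO, so every KO share was above every WT share, by a margin under 0.1 percentage points at its narrowest. The helicase partners Eif4b (44.9 ± 1.36 and 45.9 ± 2.31) and Eif4h (78.5, 75.0 and 72.5 in WT and 74.3, 67.8 and 64.0 in KO) overlapped, as did Eif4a3 of the exon junction complex (19.8 ± 1.78 and 19.2 ± 1.89).

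The repressors that bind eIF4E did not separate the groups. Eif4ebp2, the main such protein of brain, gave 12.9, 15.5 and 15.6 FPKM for WT libraries and 14.2, 14.9 and 14.3 for KO libraries. Eif4ebp1, on the same chromosome as Cntnap4 (chromosome 8 from 27260329 to 27276674), measured 1.63, 1.79 and 1.02 FPKM across WT libraries, against 1.22, 0.92 and 1.02 across KO libraries, on a mean of 47.3 reads per library. Eif4enif1, which carries eIF4E into the nucleus and to RNA granules, had WT values of 7.87, 8.70 and 7.76 FPKM and KO values of 10.6, 9.55 and 7.92. All 3 overlapped, and Eif4ebp3 was under the filter at 4.17 reads per library.

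The paralogs of eIF5A, which relieves stalled ribosomes and carries the amino acid hypusine, separated in opposite directions. Eif5a (ENSMUSG00000078812, chromosome 11 from 69916714 to 69921958) measured 131, 117 and 106 FPKM across WT libraries, against 104, 96.1 and 98.0 across KO libraries. The groups did not overlap, although replicate 3 of WT and replicate 1 of KO nearly met, and the fitted log2 difference was -0.24 (SE 0.11, limma adjusted p = 0.377; -0.15 with the length trend removed).

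Eif5a2 (ENSMUSG00000050192, chromosome 3 from 28781276 to 28798846) had WT values of 10.8, 15.0 and 16.1 FPKM and KO values of 16.5, 17.3 and 18.6. Its log2 difference was 0.31 (SE 0.15, limma adjusted p = 0.380), and without replicate 1 of WT, the lowest library, it was 0.15. Eif5a2 was 7.65%, 11.4% and 13.2% of the summed FPKM of the pair in WT and 13.6%, 15.2% and 15.9% in KO. Eif6, which keeps the large subunit from joining early, stood at 15.0, 12.6 and 12.5 FPKM in WT libraries, compared with 14.0, 12.2 and 11.4 in KO libraries, with overlap.

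A feature that the choice of members did not use is the terminal oligopyrimidine (TOP) tract, a run of C and T bases at the start of an mRNA through which mTOR controls its translation. The lists of known TOP mRNAs were chosen with earlier results of these data known. Of 9 members known to have the tract, 7 were negative in log2, median -0.20, and 6 were lower without overlap and 0 higher. Of all tested genes 48.7% were negative, 10.1% lower without overlap and 11.9% higher without overlap. Of other protein-coding genes of 3000 bases or less, 70.8% were negative and 19.8% lower without overlap. The 6 members were Eef1a1, Eef1b2, Eef1d, Eef1g, Eif3f and Eif3h. The other three, Eef2, Eif3e and Eif4b, had overlap and log2 fold changes of -0.07, 0.03 and 0.03. The summed FPKM of the 9 was 1657, 1602 and 1664 in WT and 1388, 1352 and 1472 in KO, and most of it came from Eef1a1 and Eef2.

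Among 8 other mRNAs known for a TOP tract, 7 were negative in log2, median -0.20. Fau, which encodes a ribosomal protein of the small subunit, averaged 173 ± 14.6 FPKM in WT libraries and 124 ± 4.37 in KO libraries. Of the 8, 0 passed the threshold. With each library rescaled to the same FPKM sum, Eef1a1, Eef1b2 and Eif3f were still lower without overlap, and with the length trend removed so were Eef1a1, Eef1b2, Eef1d and Eif3f.

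Fold changes followed the length of the genes in the table. Of 25 tested members of 3000 bases or less, 22 were negative in log2, median -0.12. Of 37 longer members 14 were negative, and the median was 0.04. Without overlap, 8 of the shorter members were lower and 0 higher, and 2 of the longer ones (Eif3i and Eef1d) were lower and 7 higher. The other protein-coding genes had the same pattern, with medians of -0.12 over 3267 shorter and 0.05 over 8486 longer genes. Of those shorter genes 19.8% were lower without overlap, beside 32.0% of the shorter members, and of the longer genes 15.5% were higher, beside 18.9% of the longer members. The Spearman correlation of length and log2 fold change was 0.555 across the 62 members and 0.404 across 11753 other protein-coding genes, values that share the 6 libraries and are given as a description.

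**Figure D4:**
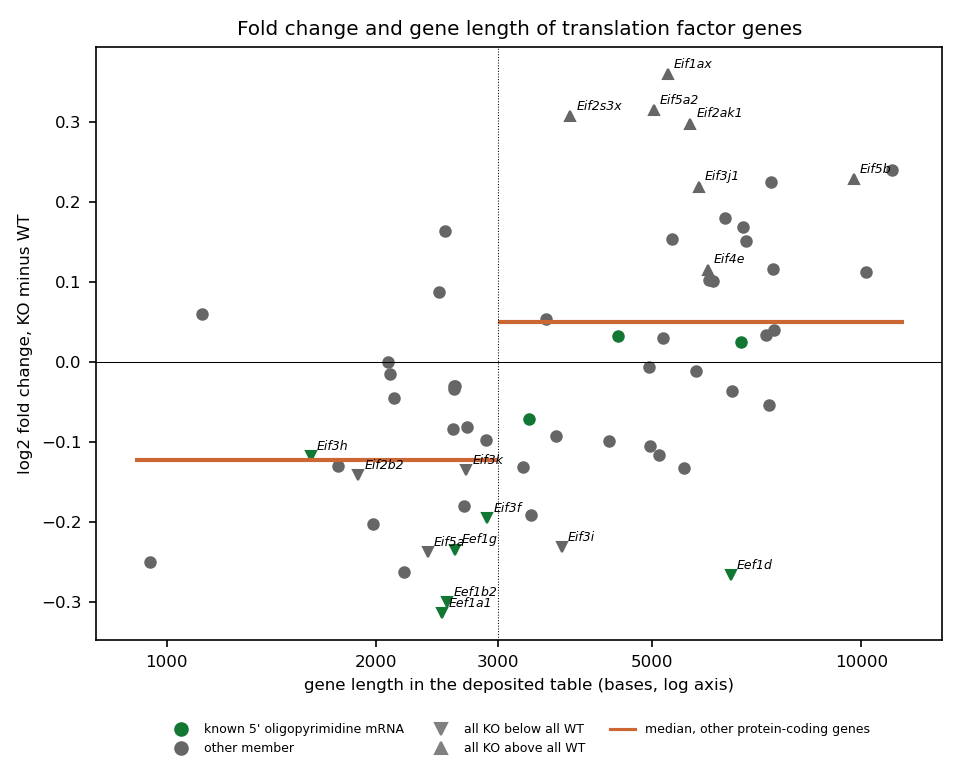
Log2 fold change against gene length in the deposited table (log axis) for the 62 tested members, with known TOP mRNAs in green, other members in grey and triangles for genes without overlap. The orange lines are the medians of other protein-coding genes of 3000 bases or less (-0.12) and over 3000 bases (0.05), and Eef1d and Eif3i lie low among the longer genes.

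With a smooth length trend removed from each library, 6 members were lower and 5 higher without overlap, and 1 was lower and 3 higher at an unadjusted p under 0.05. Over all tested genes the same setting left 8.67% lower and 10.3% higher without overlap, and 5.67% lower and 6.16% higher at an unadjusted p under 0.05. With it, Eef1d was at -0.32, Eef1a1 at -0.24, Eef1b2 at -0.22, Eif1ax at 0.34, Eif2s3x at 0.33 and Eif2ak1 at 0.26. These 6 members were still without overlap, while Eif2b2 (-0.03), Eif3h (0.00) and Eif5b (0.12) overlapped.

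The genes around the translation factors were taken from 8 lists of 84 genes, and 0 of the 82 tested passed the threshold, with 45 lower and 37 higher on average. Of 14 tested eIF2 phosphatase subunits and targets of eIF2 phosphorylation, 9 had a negative log2 fold change (median -0.13). The 2 of smallest p were the serine and glycine enzymes Shmt2 (means of 6.46 ± 0.70 FPKM for WT and 4.85 ± 0.13 for KO) and Phgdh (31.4 ± 3.82 and 23.9 ± 2.95), with no overlap. Nupr1, a stress-induced chromatin protein, had the most negative log2 fold change, -0.53, with overlap (2.40 ± 0.90 and 1.31 ± 0.32). Psat1, also of serine synthesis, overlapped at 27.7 ± 6.98 and 29.6 ± 3.11. Atf4, the transcription factor translated when eIF2 is phosphorylated, was at 64.0 ± 11.8 and 64.2 ± 4.99. In the same list Asns (40.6 ± 5.21 and 41.1 ± 0.90) and Ddit3 (10.6 ± 1.50 and 11.3 ± 1.10) overlapped between the groups. The 3 genes of this list lower without overlap were Shmt2, Phgdh and Atf5 (12.7 ± 0.89 and 10.6 ± 0.35), and 0 were higher.

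Of 7 tested enzymes of hypusine and diphthamide, 5 were negative (median -0.09). Dohh, which completes hypusine on eIF5A, had means of 9.04 ± 0.88 (WT) and 6.60 ± 1.15 FPKM (KO) with no overlap, and Dph3, of the diphthamide pathway of eEF2, means of 7.72 ± 0.05 and 8.95 ± 0.83. Of 16 regulators of eIF4F and poly(A)-binding proteins, 10 were positive (median 0.10), with the S6 kinase Rps6kb1 at 5.16 ± 0.30 and 6.30 ± 0.24 and Pabpc4 at 9.01 ± 0.54 and 7.34 ± 0.73.

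In termination and recycling, 4 of 6 were positive (median 0.03), with the release factor Gspt1 at 12.2 ± 1.68 and 15.1 ± 0.60 FPKM and the ribosome rescue factor Pelo at 2.03 ± 0.29 and 1.43 ± 0.09. Of 20 aminoacyl-tRNA synthetases 12 were positive (median 0.05), with Iars at 9.33 ± 0.66 and 11.5 ± 0.71 and Nars at 68.8 ± 3.76 and 78.0 ± 3.17. Of 9 mitochondrial translation factors 6 were negative (median -0.05), while the 2 of smallest p, Gfm1 (9.85 ± 0.70 and 11.4 ± 0.29) and Mtif2 (5.21 ± 0.28 and 6.04 ± 0.14), were higher on average. The reinitiation genes Denr (7.29 ± 0.78 and 6.68 ± 0.22) and Mcts1 (21.1 ± 2.64 and 20.2 ± 2.45) overlapped.

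The members together took 1.10% to 1.19% of reads in WT and 1.06% to 1.11% in KO, and these ranges overlapped. Mitochondrial genes held 4.76% to 8.34% of reads in WT, highest in replicate 3, and 4.10% to 6.31% in KO. Without those reads the members' share was 1.193% to 1.26% in WT and 1.11% to 1.189% in KO. Every KO library was thus below every WT library, by a narrow margin. Their summed FPKM, 3479 to 3578 in WT and 3222 to 3368 in KO, did not overlap either. The mean sums were 3529 in WT and 3300 in KO, and most of this difference came from Eef1a1, with means of 917 and 737. The sum therefore does not describe the members in general. The members lay on 21 chromosomes, with 6 on each of chromosomes 2, 7 and 15. Some lay close together, and neighbours did not share a direction without overlap. Eif4a1 and Eif5a are 244 kb apart on chromosome 11, where Eif5a was lower without overlap and Eif4a1 overlapped. Eif2b5, Eef1akmt4 and Eif4g1 lie near each other on chromosome 16, with 159 kb between Eif2b5 and Eif4g1, and the groups overlapped for all 3.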

How the data were processed

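The authors deposited 1 table of FPKM per Ensembl gene for 6 libraries; the file headers also name each gene's position, length and biotype. Per the submitters' processing notes the builds are GRCm38 and mm10; printed positions are the table's own. Per the labels' protocols, a Qiagen column kit and the SMARTER mRNA-Seq chemistry were used. Aligner, counter and strand setting: not given in the sources used here. FPKM times length was a whole number of equal steps in 100% of values (tolerance 0.01 reads), so reads were recovered.

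Genes of mean FPKM of at least 1 were tested with limma 3.58.1 in R 4.3.3 on log2(FPKM + 1), with a variance trend, two-sided; the fit was tried on simulated counts. The smallest exact permutation p that 3 against 3 libraries allow is 0.1. Alternatives were another pseudocount (0.1), filters (none, mean FPKM of at least 5), scalings, variance models, a length trend removed, voom and libraries left out. The counts of groups without overlap under 4 settings were added after seeing the data. The members and lists were chosen with earlier results of these data known. Values per library are given for the 3 members of smallest p in each role group of 4 or more tested, every tested member of smaller groups, and fixed paralog sets; members without overlap, Eif1a and single values of other members were added after their values were seen. Of 201 list symbols 201 were matched, 4 through RefSeq synonyms (GRCm38.p6). Same-numbered libraries deviated together (correlations across genes of 0.17, 0.15 and 0.33 for numbers 1, 2 and 3), which meets the rule used for pairing, although replicate 2 of WT and replicate 1 of KO correlated at 0.28. All values come from the unpaired fit unless the replicate block is named. No promoter or protein sequence was used here. Some genes of the lists are not reported here by name.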

Additional observations from a re-analysis of the deposited data

How the results depend on the processing

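No member passed the threshold under any of 17 alternatives (smallest adjusted p 0.118). Over all genes 1 passed, and 0 with no filter, quantile normalization, no variance trend, the replicate block, the length trend removed or both libraries numbered 3 left out. Leaving out 1 library gave 0 to 9 (9 without replicate 3 of WT). Counted afresh in each setting, members at an unadjusted p under 0.05 numbered 8 as reported, 4 with the length trend removed, 5 with no variance trend and 2 to 11 with 1 library left out. Lower members among them numbered 4 as reported, 0 with equal FPKM sums, 7 with sample weights, 1 with the length trend removed and 0 to 8 with 1 library left out (8 without replicate 3 of WT, 0 without replicate 2 of KO). Higher members numbered 4 as reported, 2 with no variance trend, 1 with sample weights, 1 without both libraries numbered 3 and 1 to 5 with 1 library left out. The replicate block gave 3 lower and 3 higher, and changed no call of a member. The median of -0.03 was 0.025 with equal sums and -0.06 to 0.01 with 1 library left out. Members lower without overlap were 3 with equal sums (6.07% of all tested genes), 6 with the length trend removed (8.67%) and 24 without both libraries numbered 3 (25.6%), where fewer samples make overlap rarer, and those higher 12 in the last case (27.5%).

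Of 62 tested members 38 kept their direction in all alternatives. Signs that turned are given here for the members of smallest p in their role group and for the fixed paralog sets. With equal sums they were 0.058 for Eef1a2, 0.043 for Eif1, 0.043 for Eif4ebp2 and 0.022 for Eif2b5. With quantile normalization they were 0.065 for Eef1a2, 0.066 for Eif1 and 0.036 for Eef2, and with sample weights -0.017 for Eif1b. With the length trend removed they were 0.10 for Eef1a2, 0.086 for Eif1, -0.039 for Eif4g1, -0.0060 for Eif4g2 and 0.039 for Eif2b5. Without both libraries numbered 3 they were 0.054 for Eef1a2, 0.013 for Eif1, 0.039 for Eif4ebp2, -0.0047 for Eif2a and 0.016 for Eef2. With 1 library left out the log2 fold change ran from -0.063 to 0.076 for Eef1a2, -0.15 to 0.021 for Eef2, -0.060 to 0.051 for Eif1, -0.0055 to 0.10 for Eif1b, -0.11 to 0.033 for Eif2b5, -0.22 to 0.0058 for Eif4a1, -0.10 to 0.032 for Eif4ebp2 and -0.079 to 0.13 for Eif4g1. Of members also given per library, Eif2s1 turned in 4 alternatives (up to 0.045, with equal sums), Eif1a in 1 (0.029 without replicate 1 of WT), Eef1e1 in 1 (0.023 without the same library) and Eif3h in 1 (0.0044 with the length trend removed). The cause of these turns was not tested. With 3 libraries a group, a member that missed the threshold is not shown to be unchanged.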

Other observations

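Processed pseudogenes of the family were listed beside the members, and 17 rows were described as pseudogenes of an initiation or elongation factor. Of these 7 were above 0 in at least 1 library and 2 had a mean FPKM of at least 1. Eif4a-ps4 reached 23.1, 21.1 and 14.8 FPKM in the WT libraries and 19.1, 17.1 and 17.7 in the KO libraries, on a mean of 390.2 reads per library. Its description names the factor eIF4A without a paralog. In WT, Eif4a1 and Eif4a2 were both also highest in replicate 1 and lowest in replicate 3. In KO, Eif4a-ps4 and Eif4a1 (44.0, 39.5 and 42.0 FPKM) were highest in replicate 1 and lowest in replicate 2. Eif4a2 (118, 125 and 127) was instead lowest in replicate 1 of KO. The origin of the reads of Eif4a-ps4 was not tested. How the authors assigned reads shared between such rows was not given in these sources. Eif3s6-ps2 rested on a mean of 4.83 reads.

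Some tested members share their span with a gene on the opposite strand that held more reads than they did. Alg1 held 512% as many reads as Eef2kmt, Snx17 247% as many as Eif2b4, Serp1 151% as many as Eif2a, Rassf5 136% as many as Eif2d and Drg1 126% as many as Eif4enif1. The groups overlapped for these 5 members, and Eef1b2, which did not overlap, is described with Ndufs1 above. On the same strand, Fgfr2 held 386% as many reads as Eef1akmt2, whose groups also overlapped. Eif5b, higher in KO without overlap, shares its span with Rev1 on the opposite strand, which held 29.1% as many reads.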
